A study of Mus musculus with 48 samples.

Results

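The comparison described here is that of spaceflight (FLT) with ground control (GC) mice in 1 cortical region, CT, among mice treated with BuOE: 3 FLT-BuOE against 3 GC-BuOE areas of illumination (AOIs), 6 of the 48 AOIs of the series, chosen by the region, flight and treatment labels. An AOI is a stretch of a brain section from which ultraviolet light releases the DNA tags of hybridized probes for sequencing. All animals were male C57BL/6 mice, 10 weeks old at launch, and no transgene is named. FLT-BuOE mice spent 35 days on the International Space Station and reached the laboratory within 20 h of splashdown, whereas GC-BuOE mice lived for 35 days in flight hardware cages on the ground, with a start 3 days later. Both groups received BuOE (MnTnBuOE-2-PyP5+) under the skin at 1 mg/kg in 0.2 mL, first 7 days before launch and then weekly. The saline groups FLT-SAL and GC-SAL, 3 mice each, entered the same fit, so that all 12 CT AOIs set the spread between mice. Each AOI came from a different mouse within the region, and a group's 3 sections lay together on 1 slide of their own. Slide and group therefore cannot be told apart.

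The manganese porphyrin BuOE works as a small-molecule mimic of superoxide dismutase, the enzyme that removes superoxide. Cortical tissue holds layered excitatory neurons, inhibitory interneurons, astrocytes, microglia, vessels and myelinating oligodendrocytes, and an AOI over the cortex mixes all of these. Neurons switch on immediate early genes such as Arc within minutes of activity, and stressed cells of any kind switch on chaperones that keep proteins folded.

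The FLT-BuOE AOIs covered 144580 square μm each with 448, 440 and 416 nuclei, and the GC-BuOE AOIs covered 208860 square μm each with 544, 470 and 570 nuclei. Nuclei per 10000 square μm came to 31.0, 30.4 and 28.8 in flight and to 26.0, 22.5 and 27.3 on the ground. The groups overlapped neither in area nor in nuclei nor in nuclear density. The part of these gaps in the results was not tested. A fit with nuclei as a covariate cannot do so, because with group in the model its slope rests on differences within groups. Those differences were widest in GC-SAL (140, 578 and 500 nuclei). Deduplicated counts did overlap, from 545668 to 916917 in flight and from 609605 to 1075765 on the ground. Values are Q3-normalized counts, which scale every AOI to a common upper quartile of 40.0, and probes without a target in the transcriptome, the negative controls, read 14.4 to 16.4 in flight and 13.7 to 14.8 on the ground. Of the 15782 genes tested, 12880 had a mean over the 6 AOIs above 1.5 times the negative control. As a check of the cortical label, 6 hippocampal neuron markers summed to 126 to 153 over the 6 CT AOIs, against 259 to 353 in the hippocampal CA region and 278 to 354 in the dentate gyrus (DG) of the same mice. The regions come in separate tables that share the common upper quartile of 40.0. CT and the frontal cortex region FCT (127 to 158) overlapped on these markers. Markers of cortical layers separated CT from the hippocampal regions less well. Layer 5 markers summed to 276 to 540 in CT, 177 to 237 in CA and 283.5 to 314 in DG. Upper-layer markers summed to 251 to 476, 208 to 268 and 225 to 293 in the same order. Layer 6 and 6b markers summed to 174 to 216, 213.5 to 272 and 170 to 205. Because an AOI yields bulk RNA, fewer cells of a type and less RNA per cell cannot be told apart.

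Spaceflight under BuOE gave 2 differentially expressed genes (DEGs) in CT, Cryab and Arc, and both were lower in flight. To count as a DEG a gene had to pass 0.05 in limma's adjusted p and change more than 1.5-fold, and the 2 DEGs are 0.0127% of the genes tested. By the main limma fit and by DESeq2 0 DEGs were higher in flight, and edgeR called 1, Rfx2. With the upper quartile over the negative control as a covariate, limma called 1 higher, 4930578G10Rik (log2 fold change 0.944, adjusted p = 0.0331). At an unadjusted p below 0.05, limma had 497 genes higher (3.15%) and 552 lower (3.5%), edgeR 443 higher and DESeq2 168 higher. The median log2 fold change over all genes was -0.004, and 84 genes were more than 1.5-fold higher and 137 more than 1.5-fold lower, whatever their p. With 3 mice against 3, an exact two-sided permutation test of a single gene cannot go below p = 0.1, so the calls rest on the spread that limma pools over genes, and that spread is between these mice only.

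Cryab encodes alpha B-crystallin, a small heat shock protein that is abundant in oligodendrocytes and astrocytes, and lies on chromosome 9 at 50751325 to 50756636 of GRCm38 (GENCODE). Its Q3-normalized counts were 46.5, 47.8 and 43.1 in the FLT-BuOE mice and 103, 109 and 114 in the GC-BuOE mice. The groups stood well apart, with every flight mouse under every ground mouse and means of 45.8 ± 2.43 and 109 ± 5.50 (SD, n = 3 each). The log2 fold change was -1.23 ± 0.17 (SE, limma adjusted p = 5.01e-05), and it stayed between -1.26 and -1.19 when each of the 12 mice was left out in turn. The adjusted p reached 0.0574 without the mean-variance trend, the one alternative tried under which the call was lost.

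Arc encodes a synaptic protein that takes part in the removal of AMPA receptors, and lies on chromosome 15 at 74669083 to 74672570. Its Q3-normalized counts were 203, 169 and 139 in flight and 379, 334 and 302 on the ground, again without overlap. The means were 11.3 times the negative control in flight and 23.9 times on the ground. The log2 fold change was -0.997 ± 0.17 (limma adjusted p = 0.00278). The call was lost without FLT-BuOE mouse 3 (adjusted p = 0.0918), without GC-BuOE mouse 1 (0.0883), with nuclei as a covariate (0.0886) and without the trend (0.667), while the log2 fold change kept its direction, from -0.86 to -1.13 over the mice left out.

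The next 4 genes below Cryab and Arc, in order of p, did not pass the adjusted test. Sdf2l1, an endoplasmic reticulum (ER) protein of the chaperone machinery, read 19.4, 22.2 and 23.1 in flight and 50.3, 35.4 and 50 on the ground, a log2 fold change of -1.02 ± 0.22 (limma adjusted p = 0.11). Besides the fits leaving out 1 mouse, Sdf2l1 passed in 3 of 14 alternative fits, among them the 6 BuOE AOIs alone (limma adjusted p = 0.0414). Its means were 1.43 times the negative control in flight and 3.19 times on the ground. Mical2, an enzyme that oxidizes actin filaments, read 152, 183 and 184 in flight and 268, 275 and 272 on the ground (log2 fold change -0.65 ± 0.15, adjusted p = 0.221). Ccl27b (-0.76 ± 0.17) and Tmem151b (-0.69 ± 0.15) shared an adjusted p of 0.154. All 4 showed no overlap between the groups. Groups that do not overlap occurred in 1738 genes, 11.0% of those tested, 857 higher (5.43%) and 881 lower (5.58%) in flight. In saline mice Sdf2l1 was at -0.86 ± 0.22 and Mical2 at -0.55 ± 0.15. Ccl27b and Tmem151b were at -0.36 ± 0.17 and -0.45 ± 0.15 there, and none of the 4 passed the adjusted test.

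The 6 genes with the smallest p among those higher in flight were 4930578G10Rik, Dbp, Hgsnat, Spout1, Tbr1 and Eml2, with adjusted p from 0.229 to 0.297. The predicted gene 4930578G10Rik read 64.6, 83.4 and 61.6 in flight and 32.0, 50.7 and 37.7 on the ground, a log2 fold change of 0.80 ± 0.19. It lies on chromosome 4 at 42735545 to 42846248, close to Ccl27b at 42655251 to 42656005, in a stretch with near-identical gene copies, so which copies either probe reads is uncertain. Hgsnat, a lysosomal enzyme of heparan sulfate breakdown, read 41.3, 42.2 and 33.9 in flight and 22.9, 16.0 and 26.9 on the ground (0.83 ± 0.21). Tbr1, a transcription factor of deep-layer excitatory neurons, read 55.5, 55.6 and 40.8 against 22.9, 40.0 and 29.2 (0.72 ± 0.19). In each of these 6 genes all flight mice were above all ground mice. In saline mice 4930578G10Rik was at 0.99 ± 0.19 (limma adjusted p = 0.00629) and Eml2 at 0.52 ± 0.16 (0.423). Dbp, Hgsnat, Spout1 and Tbr1 were at 0.17, 0.07, 0.15 and 0.37 there.

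**Figure D1:**
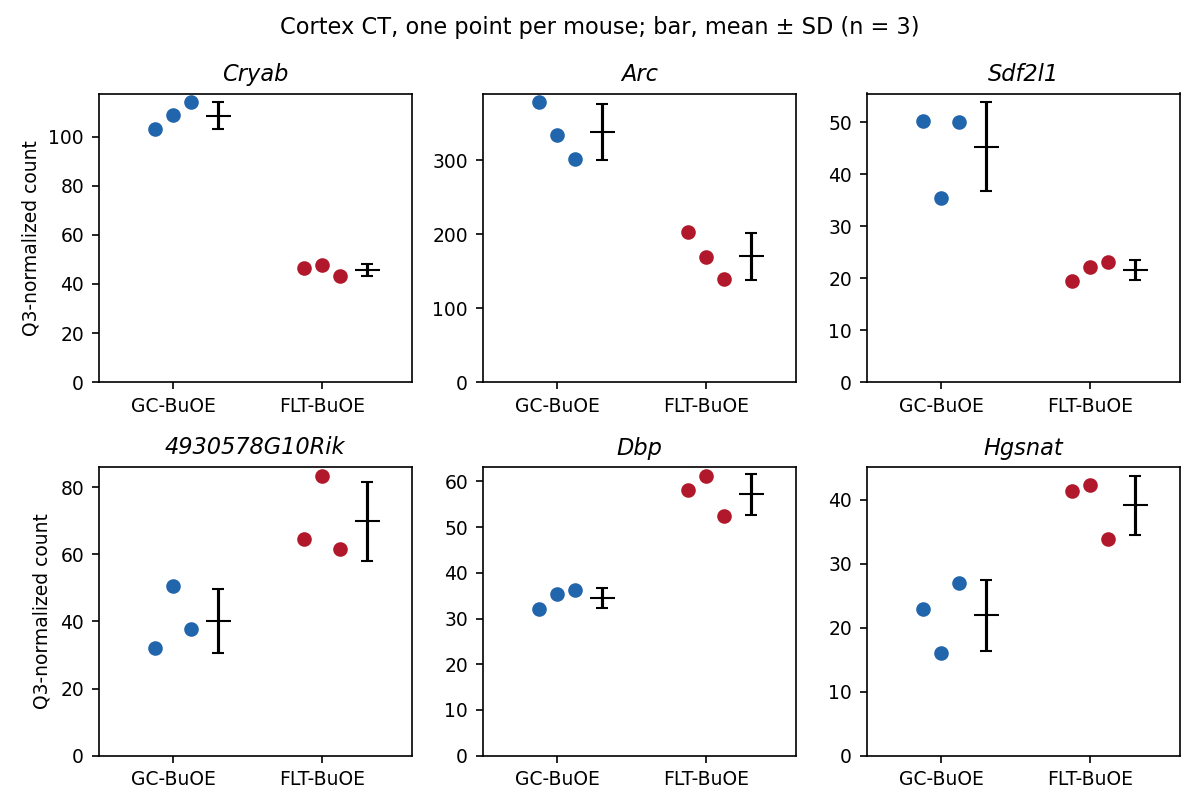
Q3-normalized counts (vertical axes, from 0) of 6 genes in CT, 1 point per mouse, with the mean ± SD of 3 mice beside the points, GC-BuOE in blue and FLT-BuOE in red. Cryab, Arc and Sdf2l1 are lower and 4930578G10Rik, Dbp and Hgsnat higher in every flight mouse, and only Cryab and Arc passed the adjusted test.

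Heat shock proteins and their cochaperones, which fold and refold proteins in the cytosol, mitochondria and ER, were lower in flight in most cases. Of 22 measured members, 1 passed the adjusted test (Cryab), 9 were lower at an unadjusted p below 0.05 (40.9%, against 3.5% of all genes) and 0 were higher. The groups did not overlap for 11 members, all lower in flight (50%, against 5.58% of all genes), and the median log2 fold change of the list was -0.32. Hspb1, another small heat shock protein, had means of 18.0 ± 3.16 and 31.0 ± 2.27 (log2 fold change -0.77 ± 0.24, adjusted p = 0.482), the flight mean close to the negative control. Hspa5, the major ER chaperone, read 15.5, 28.9 and 39.3 in flight and 38.9, 46.7 and 48.5 on the ground (-0.75 ± 0.23, adjusted p = 0.395), with FLT-BuOE mouse 3 just inside the ground range. Dnajb5 (-0.51 ± 0.16), Hsph1 (-0.50 ± 0.17), Hsp90b1 (-0.40 ± 0.16), Hsp90ab1 (-0.39 ± 0.17), Chordc1 (-0.47 ± 0.21) and Hspa1a also had an unadjusted p below 0.05. The mitochondrial chaperones Hspd1, Hspe1 and Hspa9 were at -0.10, -0.09 and 0.14. Leaving out 1 mouse at a time gave 5 to 11 members lower at that threshold and none higher, and the list median stayed below 0 under all 5 scalings and count models tried, from -0.41 to -0.30.

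Promoters of 3 of these chaperones are shown because each holds a sequence element known from stress-induced chaperone genes. The windows are RefSeq promoters of GRCm38.p6, 250 bases before to 50 after the start, on the strand of the gene, with matches in capitals, and both strands were searched. Hspa5 (chr2:34771840-34772139, plus strand) holds 1 and Hsp90b1 (chr10:86705395-86705694, minus strand) 2 matches to the ER stress element (CCAAT, 9 unspecified bases, CCACG), and Chordc1 (chr9:18292017-18292316, plus strand) 3 overlapping matches to 3 alternating heat shock units (GAA, TTC and GAA, each 2 unspecified bases apart). A match is a description of the letters and not a site shown to be used.
Hspa5: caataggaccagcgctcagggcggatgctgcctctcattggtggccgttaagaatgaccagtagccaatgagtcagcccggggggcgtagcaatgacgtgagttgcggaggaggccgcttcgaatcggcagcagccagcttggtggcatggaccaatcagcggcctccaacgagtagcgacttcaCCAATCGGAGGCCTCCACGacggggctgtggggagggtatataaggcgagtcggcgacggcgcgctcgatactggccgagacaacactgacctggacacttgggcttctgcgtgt
Hsp90b1: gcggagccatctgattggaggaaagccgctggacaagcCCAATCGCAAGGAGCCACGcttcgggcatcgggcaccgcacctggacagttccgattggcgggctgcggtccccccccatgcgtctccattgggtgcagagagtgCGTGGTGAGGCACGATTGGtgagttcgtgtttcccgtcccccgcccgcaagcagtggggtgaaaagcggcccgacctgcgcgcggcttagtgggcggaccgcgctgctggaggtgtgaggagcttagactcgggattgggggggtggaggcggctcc
Chordc1: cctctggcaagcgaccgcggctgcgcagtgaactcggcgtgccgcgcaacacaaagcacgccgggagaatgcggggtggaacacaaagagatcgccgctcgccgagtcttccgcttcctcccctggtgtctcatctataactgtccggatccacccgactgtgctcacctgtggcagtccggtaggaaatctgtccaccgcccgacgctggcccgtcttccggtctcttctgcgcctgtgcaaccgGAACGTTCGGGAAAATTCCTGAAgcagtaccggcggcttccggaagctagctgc
Of the 22 measured members, 16 had a window. The ER stress element was in 2 of them (Hspa5 and Hsp90b1) and in 0.137% of all 27025 genes with a window, and the heat shock units were in 4 (Hsph1, Hspd1, Hspe1 and Chordc1) and in 0.662% of all genes. Hspd1 and Hspe1 hold the heat shock units and had log2 fold changes near 0. Sdf2l1 was not among the genes with a match to either, and whether it had a window was not recorded.

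**Figure D2:**
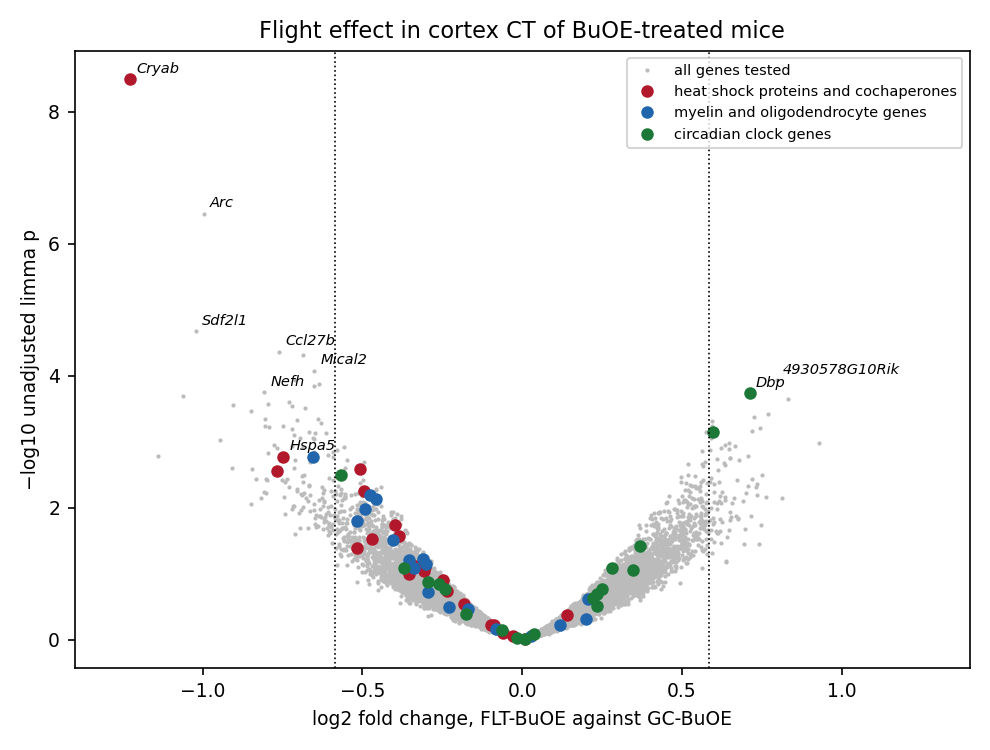
Each point is 1 of the 15782 genes in CT, with the log2 fold change of FLT-BuOE against GC-BuOE on the horizontal axis and -log10 of the unadjusted limma p on the vertical axis. Dotted lines mark a 1.5-fold change on either side, Cryab and Arc stand at the top left, and the heat shock genes in red lie mainly on the lower side.

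Myelin and oligodendrocyte genes were lower in flight in most cases, and none passed the adjusted test. Of 18 measured members, 14 had a log2 fold change below 0, 6 were lower at an unadjusted p below 0.05 (33.3%, against 3.5% of all genes), 0 were higher at that threshold, and the list median was -0.31. The median stayed below 0 under all 5 scalings and count models, from -0.54 to -0.30. With 1 mouse left out, 3 to 8 members were lower at that threshold and the median lay between -0.38 and -0.18. Trf, the iron carrier transferrin that oligodendrocytes make, had means of 24.5 ± 4.16 and 39.7 ± 11.0 (-0.65 ± 0.20, limma adjusted p = 0.395). Cldn11, the claudin of myelin tight junctions, had means of 35.3 ± 7.31 and 49.4 ± 4.12 (-0.49 ± 0.18, adjusted p = 0.608), whereas Cnp, a myelin enzyme, was at 77.1 ± 4.57 and 76.1 ± 11.1.

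Cell type markers moved along with these values. The 12 measured oligodendrocyte markers, all of them also members of the myelin list, summed to 789 to 965 in flight and to 1014 to 1222 on the ground, without overlap. The 5 measured layer 5 markers summed to 276 to 417 in flight and 479 to 540 on the ground, also without overlap, and all 5 had a log2 fold change below 0. Pcp4, a calmodulin regulator abundant in layer 5 neurons, read 152, 215 and 203 in flight and 290, 304 and 322 on the ground (-0.70 ± 0.20, adjusted p = 0.323). The 8 measured upper-layer markers summed to 302 to 476 in flight and 251 to 356 on the ground, ranges that overlap, and 7 of the 8 had a log2 fold change above 0. Among them Lamp5, a membrane protein of upper-layer neurons, had means of 99.6 ± 4.31 and 71.0 ± 12.1 (0.50 ± 0.17, adjusted p = 0.546). Rasgrf2 read 72.3, 75.6 and 40.0 against 42.3, 32.0 and 36.2, so that FLT-BuOE mouse 3 lay within the ground range. The 8 layer 6 and 6b markers had a median log2 fold change of 0.02 and the 11 interneuron markers one of -0.17. The summed markers of astrocytes (1525 to 1822 against 1603 to 1772), microglia (348 to 407 against 392 to 445) and hippocampal neurons (139 to 153 against 126 to 144) overlapped between the groups. Cryab is itself known from oligodendrocytes, and the part of cell type and layer content in its change and in that of the lists was not tested.

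No neurofilament or other cytoskeletal gene of the list fixed for them passed the adjusted test. Nefh, the heavy neurofilament subunit of large axons, read 31.0, 32.2 and 21.6 in flight and 61.8, 37.4 and 52.3 on the ground (-0.81 ± 0.20, limma adjusted p = 0.239). Nefm, the medium subunit, read 130, 126 and 83.1 against 183, 154 and 191 (-0.66 ± 0.19, adjusted p = 0.323). Of the 24 measured members of the actin and tubulin cytoskeleton list, 16 had a log2 fold change below 0 and 8 above, and 4 were lower (16.7%, against 3.5% of all genes) and 0 higher at an unadjusted p below 0.05. The groups did not overlap for 8 members, all lower in flight (33.3%, against 5.58%), and the list median was -0.13. With 1 mouse left out, 3 to 6 were lower at that threshold and 15 to 22 had a log2 fold change below 0.

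Of 33 measured immediate early genes, 1 passed the adjusted test (Arc). At an unadjusted p below 0.05, 4 were lower (12.1%, against 3.5% of all genes) and 1 was higher (3.03%, against 3.15%). The groups did not overlap for 5 members lower in flight (15.2%, against 5.58%) and for 2 higher ones (5.43% of all genes). The list median was -0.09. With 1 mouse left out, 3 to 6 were lower at that threshold and the median lay between -0.12 and -0.02. Egr3, a transcription factor, had means of 101 ± 8.52 in flight and 140 ± 24.0 on the ground (-0.46 ± 0.16, limma adjusted p = 0.571), and Homer1, a synaptic scaffold protein, 46.1 ± 4.88 and 65.3 ± 6.85 (-0.49 ± 0.17, adjusted p = 0.571). Fos, Egr1 and Npas4, classic reporters of neuronal firing, had log2 fold changes of 0.17, 0.14 and 0.16 with adjusted p from 0.923 to 0.926. Nr4a1 read 77.5, 95.6 and 70.0 in flight and 81.2, 70.0 and 84.7 on the ground, with overlap.

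No circadian clock gene passed the adjusted test. Of 19 measured genes, 3 were higher (15.8%, against 3.15% of all genes) and 1 lower (5.26%, against 3.5%) at an unadjusted p below 0.05, and the list median was 0.04. Dbp, a clock-driven transcription factor, read 58.1, 61.1 and 52.3 in flight and 32.0, 35.4 and 36.2 on the ground (0.71 ± 0.18, limma adjusted p = 0.239). Nr1d1, the repressor REV-ERB alpha, read 119, 106 and 77.0 against 61.8, 68.7 and 64.7 (0.60 ± 0.17, adjusted p = 0.300). Tef, a relative of Dbp, was at 0.37, Arntl, the core activator BMAL1, at -0.29, and Clock at -0.02. The casein kinase Csnk1d, which marks clock proteins for breakdown, was the lower member, at -0.57. Among the 3 cold-inducible RNA-binding genes, whose level responds to temperature, none passed the adjusted test, with Rbm3 at 111, 143 and 110 in flight against 89.2, 75.4 and 75.4 on the ground (0.59 ± 0.17, adjusted p = 0.323), Cirbp at 0.42 ± 0.18 (adjusted p = 0.664) and Srsf5 at 0.03. Rbm3 did pass in saline mice, at 0.79 ± 0.17 (limma adjusted p = 0.021).

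In the other lists no member passed the adjusted test, and their shares at an unadjusted p below 0.05 stand beside 3.15% higher and 3.5% lower of all genes. Among 16 glucocorticoid receptor and response genes 2 were higher (12.5%) and 2 lower (12.5%), with Errfi1, a brake on growth factor receptors, at -0.72 ± 0.20 (limma adjusted p = 0.300) and Ddit4, a stress-induced inhibitor of mTORC1, at 0.64 ± 0.18 (0.357). Among 28 extracellular matrix and integrin genes 2 were higher (7.14%) and 4 lower (14.3%), with Col6a1, a collagen VI chain, at -0.71 ± 0.20 (0.308). The 81 oxidative phosphorylation genes had a median of -0.03 with 3 lower (3.7%) and 0 higher, and the 76 cytosolic ribosomal protein genes a median of -0.05 with 0 at that threshold. Of 29 antioxidant and glutathione enzymes, 2 (6.9%) were lower (Prdx2 at -0.42 ± 0.17 and Srxn1 at -0.40 ± 0.18, adjusted p = 0.635 and 0.708) and 0 were higher. For 30 calcium and calmodulin genes 4 were higher (13.3%) and 0 lower, led by Hpca, the neuronal calcium sensor hippocalcin, at 210 ± 15.4 against 141 ± 19.9 (0.58 ± 0.16, adjusted p = 0.300). The 26 synaptic vesicle genes and the 14 genes of the amyloid, tau, synuclein and apolipoprotein list had 0 members at that threshold, against 6.65% of all genes in either direction. Lists of 42 glutamate and GABA receptor subunits (4 higher, 9.52%, and 1 lower, 2.38%), 80 potassium channels (3 higher, 3.75%, and 4 lower, 5%), 13 neuropeptide precursors (2 higher, 15.4%, and 1 lower, 7.69%), 3 lipocalins (1 higher, 0 lower) and 3 metallothioneins (1 higher, 1 lower) had members at that threshold as given.

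**Figure D3:**
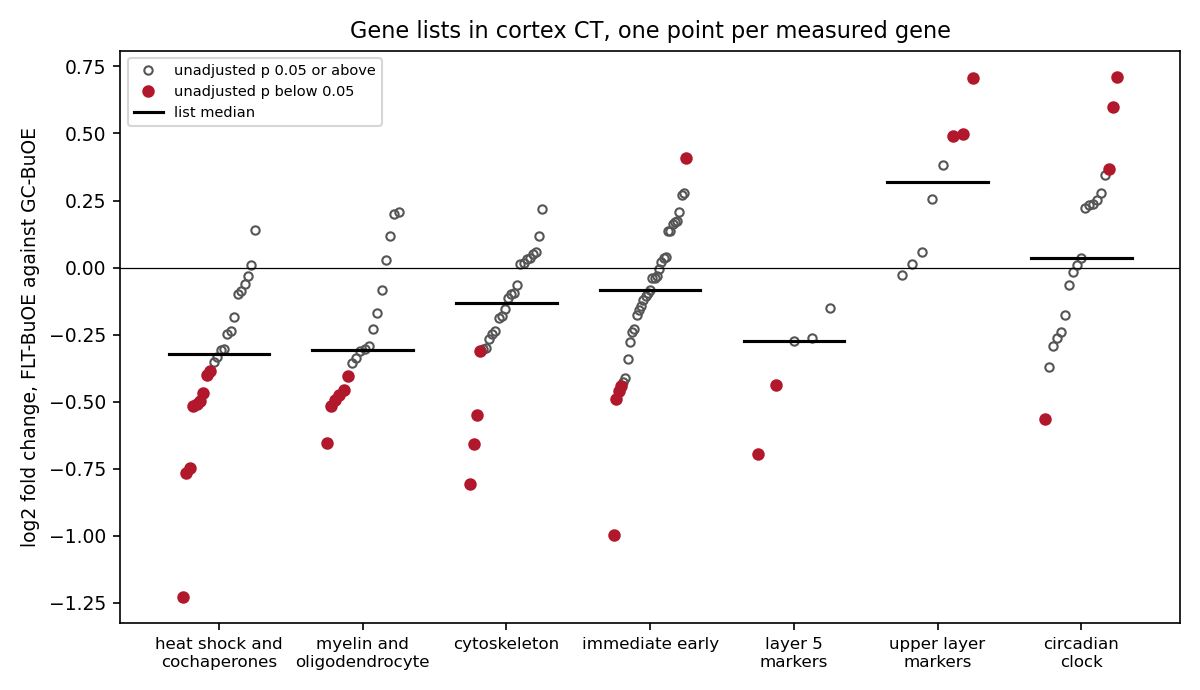
Log2 fold changes of FLT-BuOE against GC-BuOE (vertical axis) in CT, 1 point per measured gene of 7 lists, filled in red at an unadjusted limma p below 0.05, with a black bar at the list median. Heat shock, myelin and layer 5 genes lie mainly below 0, with medians of -0.32, -0.31 and -0.27, and upper-layer markers mainly above, with a median of 0.32.

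Whether the flight effect in CT differed between BuOE and saline mice was tested with the interaction term, that is, FLT-BuOE minus GC-BuOE less FLT-SAL minus GC-SAL. At an adjusted p below 0.05 and with no fold threshold it gave 3 genes (0.019% of those tested), of which Mobp and Cldn11 are described here. Mobp, a structural protein of central myelin, read 190, 253 and 231 in FLT-BuOE and 254, 308 and 271 in GC-BuOE, but 459, 653 and 466 in FLT-SAL and 207, 203 and 208 in GC-SAL. Flight mice were therefore lower than ground mice under BuOE and higher under saline. The log2 fold changes were -0.31 ± 0.16 (limma adjusted p = 0.763) and 1.33 ± 0.16 (2.75e-07), with a difference of -1.64 ± 0.23 (3.85e-05). Under BuOE the change alone did not pass the adjusted test, and the nearest mice of the groups read 253 and 254. For Cldn11 the difference was -1.43 ± 0.26 (adjusted p = 0.00703). Both genes had no overlap between flight and ground mice in either treatment, in opposite directions. With nuclei as a covariate Mobp kept the call and Cldn11 did not (difference -1.21, adjusted p = 0.423), and Cldn11 also lost it with DESeq2 (-1.42, 0.126) and without the trend (0.262). Left-out mice took the call from Cldn11 in 4 of 12 cases, FLT-BuOE mouse 1 (adjusted p = 0.0845), FLT-SAL mouse 2 (0.191), GC-BuOE mouse 3 (0.0769) and GC-SAL mouse 1 (0.0800), whose AOI held 140 nuclei.

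In saline mice 8 of the 18 myelin and oligodendrocyte genes were higher in flight at an unadjusted p below 0.05 (2.87% of all genes were), and 9 of 33 immediate early genes were lower (2.4% of all genes). Of 22 heat shock proteins and cochaperones, 5 were lower and 0 higher in saline flight mice at that threshold, with a list median of -0.16. Dnajb5 was called lower there (-0.82 ± 0.16, limma adjusted p = 0.00635). Under BuOE 3 members of this list had a lower flight effect at that threshold and 0 a higher one, and the median difference was -0.08. Of the 18 myelin and oligodendrocyte genes, 11 had a lower flight effect under BuOE at an unadjusted p below 0.05 and 0 a higher one, against 2.65% and 2.16% of all genes, and the median difference was -0.71. Oligodendrocyte markers summed to 1498 to 2061 in FLT-SAL and to 916 to 971 in GC-SAL, beside the BuOE values above, so the markers separated flight from ground in both treatments with opposite signs. Upper-layer markers summed to 220 to 268 in FLT-SAL and to 280 to 317 in GC-SAL, without overlap, and the median difference of the list was 0.48. Of 33 immediate early genes, 6 had a higher and 0 a lower effect under BuOE at that threshold, among them Egr1 (0.86 ± 0.23), Npas4 (0.95 ± 0.27) and Fos (0.91 ± 0.31), with adjusted p from 0.437 to 0.839. For Arc, the difference was 0.56 ± 0.24 (adjusted p = 0.986), with Q3-normalized counts of 129, 92.6 and 106 in FLT-SAL and 234, 365 and 383 in GC-SAL. For Cryab it was -0.94 ± 0.24 (adjusted p = 0.363), since FLT-SAL read 66.9, 117 and 67.7 and GC-SAL 115, 97.8 and 85.6. For neither DEG did the test of the difference pass.

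In saline mice the same fit gave 14 DEGs (0.0887%), and 1 of them, Arc, was a DEG under BuOE as well. The BuOE mice played no part in choosing these 14 genes except through the pooled spread. Of the 14, 9 had an unadjusted p below 0.05 under BuOE (64.3%, against 6.65% of all genes), and 10 had the same direction in both treatments. All 14 were selected for a large change in saline mice, so their sizes in the treatments are not compared as a group. The 4 with opposite directions included Mobp, Cldn11 and Nr4a1. Ptgds, the lipocalin-type prostaglandin D synthase, read 156, 207 and 151 in FLT-BuOE and 125, 85.4 and 160 in GC-BuOE (0.50 ± 0.18, limma adjusted p = 0.576), compared with 1.56 ± 0.18 in saline mice. Apod, another lipocalin, was at 0.14 ± 0.19 under BuOE and 1.29 ± 0.19 under saline, and Nptx1, a neuronal pentraxin of synapses, at 0.18 ± 0.17 and 1.05 ± 0.17. Arc, Nr4a1, Ptgds, Apod and Nptx1 did not pass the adjusted test of the difference (0.199 for Apod and 0.277 for Ptgds). Gm9936 and Itga7, which the study names for CT from these samples and which are therefore no independent evidence of a direction, were at -0.31 ± 0.31 and -0.17 ± 0.24 under BuOE, and Prepl was at -0.00 ± 0.16.

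**Figure D4:**
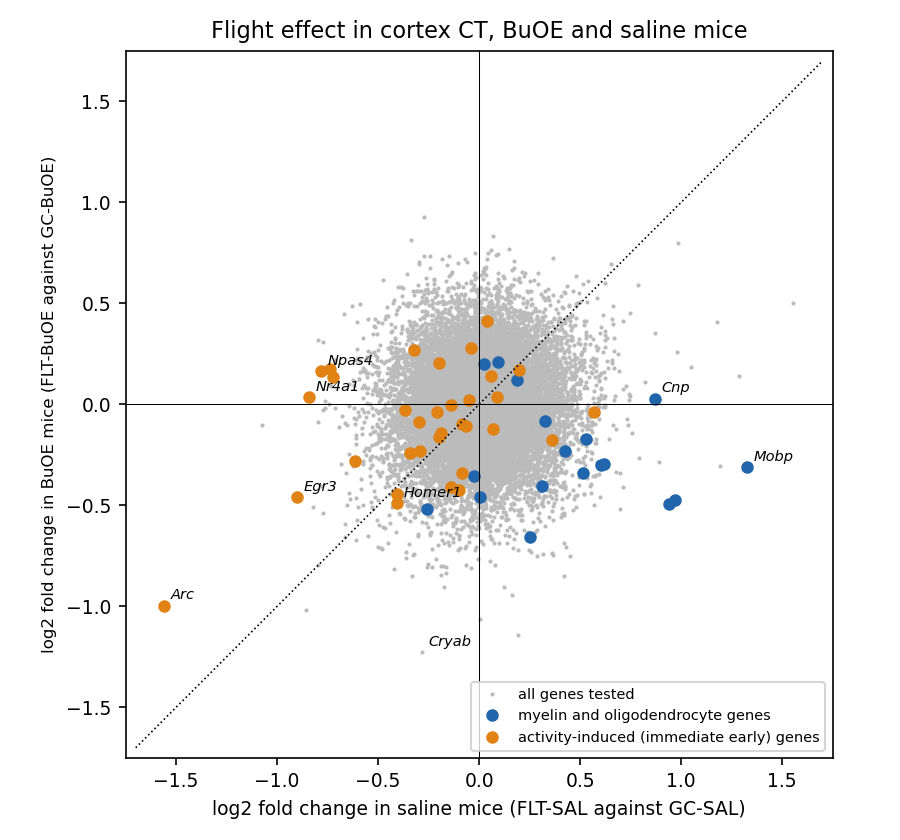
Log2 fold change of flight against ground in CT, saline mice on the horizontal and BuOE mice on the vertical axis, 1 point per gene, with myelin genes in blue, immediate early genes in orange and equality as a dotted line. Myelin genes such as Mobp (1.33 and -0.31) lie at the lower right, Arc is low on both axes (-1.56 and -0.997), and Cryab is low mainly on the BuOE axis (-0.28 and -1.23).

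The flight effect under BuOE in CT was compared with that in FCT of the same mice, by the difference between the regions within each mouse. At an adjusted p below 0.05 this gave 2 genes (0.0127%, with 984 genes, 6.23%, at an unadjusted p below 0.05), of which Junb is described here. For Junb, an AP-1 transcription factor, the difference was -1.07 (limma adjusted p = 0.0487), and nearly all of it lay in FCT, where flight mice were higher by 1.03 ± 0.16, while in CT they were at -0.04 ± 0.17. The adjusted p sits close to the threshold, and leaving out 1 mouse ended the call in 6 of 6 cases, with adjusted p from 0.0613 to 0.667. Cryab (-0.66, adjusted p = 0.655) and Arc (-0.67, adjusted p = 0.708) did not pass this test.

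Both DEGs also had log2 fold changes below 0 in the other regions of these mice, which share animals and slides with CT. Cryab was at -0.57 ± 0.20 in FCT, -0.64 ± 0.21 in CA and -0.54 ± 0.20 in DG, with adjusted p from 0.385 to 0.531. Arc was a DEG in CA (-0.98 ± 0.16, limma adjusted p = 0.000419) and was at -0.33 ± 0.23 in FCT and -0.31 ± 0.18 in DG. Sdf2l1 had -0.96 ± 0.27 in CA and -0.36 ± 0.28 in FCT. Dbp was above 0 in all 4 regions and a DEG in CA (1.14 ± 0.22, adjusted p = 0.011). Rbm3 was above 0 in all 4 as well and a DEG in DG (0.68 ± 0.14, adjusted p = 0.0195). Mobp, below 0 in CT, was above 0 in each of the other 3 regions.

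**Figure D5:**
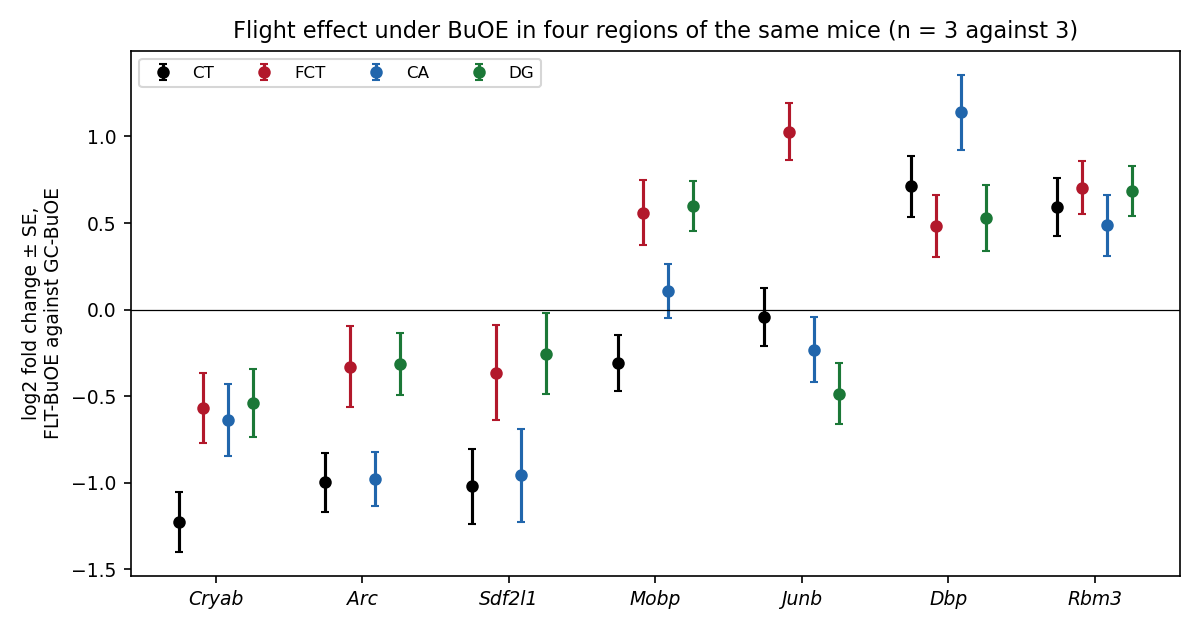
Log2 fold change ± SE of FLT-BuOE against GC-BuOE (vertical axis) for 7 genes in the 4 regions of the same mice, 3 against 3 in each. Cryab, Arc and Sdf2l1 lie below 0 and Dbp and Rbm3 above 0 in every region, whereas Mobp lies below 0 in CT alone and Junb stands out in FCT at 1.03.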

How the data were processed

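Groups came from the sample labels. Reads went through the GeoMx NGS Pipeline (trimming, stitching, alignment, deduplication), and the authors deposited the deduplicated count of each of 20175 probes per AOI. The authors then applied Q3 normalization in the GeoMx DSP Control Center and deposited this signal, 1 table per region, for 15782 genes and the negative-control row, which entered no test. The authors' 12 comparison tables (fold changes and p-values) were not used, and 0 columns of values lacked a sample. The genome build of the probe design is not given in the sources used here, and coordinates come from GENCODE for GRCm38 by symbol.

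The main test was limma 3.58.1 (R 4.3.3) on log2(Q3-normalized count + 1) with all 12 CT AOIs, group as the factor, 8 residual degrees of freedom, a trend of variance with level, and p adjusted by Benjamini-Hochberg for 15782 genes. The study's own test was unpaired, gene by gene, with permutation q-values; limma was used here to pool the spread. Fold changes are on that scale and understate changes of genes near the negative control. The same contrasts gave the interaction, and the comparison with FCT used the difference between regions within each mouse. Counts recovered from the Q3-normalized signal (99.98% of values within 0.02 of a whole count) were tested with edgeR 4.0.16 and DESeq2 1.42.0. No pair of CT AOIs of a group matched within sampling noise (chi-square per gene 1.17 to 2.29). The fits were tested on simulated data.

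The comparison, the gene lists and the markers were chosen with earlier results of these data known. Named genes are up to 12 DEGs in each direction, the next genes by p up to 6 in each direction, the 2 members of each list with the largest moderated statistic, genes listed as named for CT by the study, up to 5 genes in each direction passing the interaction or region test, and saline DEGs shared with BuOE. The list of the study's genes held Prepl, which the study's text does not name, and lacked Itga7, which it does. Itga7, other list members, other saline DEGs and Rfx2 were chosen after their values were seen. Alternatives were other pseudocounts, filters, scalings, models, covariates and samples. Some items withheld for evaluation are not reported here, and counts over genes and lists include them.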

Additional observations from a re-analysis of the deposited data

Results flagged for a closer look

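The flight effect in CT differed between BuOE and saline mice, by the interaction term of limma, for Mobp (-1.64 on the log2 scale) and Cldn11 (-1.43). The summed oligodendrocyte markers of these AOIs moved the same way. Mobp and Cldn11 are themselves in that sum, so it is not separate from them, and the part of oligodendrocyte content was not tested.

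The flight effect under BuOE differed between CT and FCT of the same mice for Junb (-1.07). No group had enough mice to look for a single outlying animal.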

How the results depend on the processing

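The count of 2 DEGs was 2 with pseudocounts of 0.5 and 10, a low-value filter, negative-control subtraction, TMM scaling, median centring and DESeq2, and 3 with only the 6 BuOE AOIs. It was 5 with edgeR, 0 without the trend, 1 with nuclei as a covariate, 6 with the upper quartile over the negative control as a covariate, and 10 with edgeR on the 6 BuOE AOIs (chosen after seeing the data, as were the fits without a saline mouse). Leaving out 1 mouse gave 1 to 3. The count of 3 genes whose effect differed between BuOE and saline was 1 without the trend and 1 with nuclei as a covariate, and 2 to 5 with 1 mouse left out. The count of 2 genes for CT against FCT was 1 with a pseudocount of 0.5, 0 after negative-control subtraction, 4 with median centring, 0 without the trend, and 0 to 3 with 1 mouse left out. Apart from what these settings change by construction, the cause was not tested.

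Mice of different groups share only a number: deviations of same-numbered BuOE mice correlated at 0.0816, 0.0506 and 0.028 across genes, although each correlated best with its own number. With the replicate block the counts were 2 DEGs and 3 genes for BuOE against saline.

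Gm9936 and Prepl changed sign between settings. Gm9936 was at -0.31 in the main fit and at 0.0466 with nuclei as a covariate. Its means were 1.33 times the negative control in FLT-BuOE and 1.77 times in GC-BuOE. Prepl was at 0.00634 with edgeR, 0.00933 with DESeq2, 0.0595 with nuclei and 0.0792 with the upper quartile ratio as covariates, 0.00436 with edgeR on 6 AOIs, and -0.147 to 0.0735 with 1 mouse left out. Values near the negative control limit the precision of low genes such as Hspb1.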
